A study of Mus musculus with 62 samples.

Results

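Chromatin at 9 genes of the interleukin-1 and chemokine response, Il1a, Il1b, Il6, Cxcl2, Ccl3, Ccl4, Nlrp3, Il18 and Il1r1, was followed in mouse haematopoietic stem and progenitor cells (HSPCs) lacking the histone chaperone Daxx. The genes were chosen by name, and their data were all sites of differential signal that overlapped a gene body or the 20 kb on either side of it. Of 1743368 sites listed in the 14 tables used, 409 (0.0235%) lay at these 9 of 55450 annotated genes. The signal came from CUT&Tag, in which an antibody directs a transposase to cut and tag nearby DNA, with antibodies to H3.3, Pu.1, H3K27ac, H3K9me3 and H3K27me3. Cells were bone marrow of C57BL/6 mice selected for c-Kit after removal of lineage-marked cells. All mice carried 1 copy of Mx1-driven Cre (Cre +/-), which is switched on through the interferon response by pI:pC injection at 5 to 11 weeks of age, in both sexes, and which acts in haematopoietic and also in other cells. WT mice were Daxx +/+ Cre +/-, Daxx-KO mice were Daxx F/F Cre +/- with exons 2 to 7 of Daxx flanked by loxP sites, and DKO mice were Daxx F/F and also Pu.1 F/F, with Cre +/-, so that both Daxx and the myeloid transcription factor Pu.1 were deleted. WT and Daxx-KO were compared at 3, 8 and 24 weeks post induction (w.p.i.), with 2 mice per group at 3 and 24 w.p.i. and 3 per group at 8 w.p.i., and DKO was compared with either at 8 w.p.i.

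Il1a and Il1b encode the 2 interleukin-1 ligands and Il1r1 the receptor that signals for both. Nlrp3 encodes an inflammasome sensor, a protein that assembles a complex around caspase-1, and Il1b and Il18 encode cytokines that caspase-1 cleaves to their active forms. Il6 encodes a pleiotropic cytokine, Cxcl2 a chemokine that attracts neutrophils, and Ccl3 and Ccl4 the neighbouring chemokines also called MIP-1 alpha and beta. In myeloid cells many of these genes are opened or primed by Pu.1 and are driven by NF-kB after an inflammatory stimulus. H3K27ac marks active promoters and enhancers, H3K27me3 marks Polycomb repression, H3K9me3 marks heterochromatin, and H3.3 is the histone variant that Daxx deposits.

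Each value is a normalized count, the reads of a library over a site divided by a constant for that library. It is not divided by the length of the site, so that values are compared between libraries and not between sites. The site called the largest of a window is the one with the highest mean count there, which favours long sites. A site is called gained when every library of the first-named group was above every library of the other group, and lost when every library was below. No test was run, since a site was listed only if it passed the submitters' own test of the same contrast, and an exact permutation test could not go below p = 0.333 with 2 against 2 mice or p = 0.1 with 3 against 3. Counts at the 9 genes are therefore given beside the percentage over all listed sites of the same table. In such bulk samples, fewer cells of a type and less signal per cell cannot be told apart.

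The Daxx deletion was visible in the listed sites. Over Daxx, H3K27ac at chr17:33909801-33913400 stood at 113 and 93.7 in Daxx-KO as opposed to 858 and 368 in WT at 24 w.p.i., and Pu.1 at chr17:33912801-33913750 was listed at 0 in both Daxx-KO mice against 63.3 and 44.2. The libraries held on average 1.21 to 33.8 reads per 600 bp window at 3 w.p.i., 0.2 to 3.29 at 8 w.p.i. and 3.97 to 10.3 at 24 w.p.i. Depth was uneven within some groups, at 0.67, 0.21 and 3.28 in the DKO H3K9me3 libraries of 8 w.p.i. and, in WT at 3 w.p.i., at 22.9 and 3.06 for H3.3 and at 33.8 and 2.75 for Pu.1. H3.3 and Pu.1 at 3 w.p.i. came from the same 4 mice, and all 5 antibodies at 24 w.p.i. from another 4 mice. Every gene of the cell type lists below carried a listed H3K27ac site at 24 w.p.i., among them 6 of 6 HSPC genes and 8 of 8 neutrophil genes. The summed H3K27ac of the neutrophil list (Elane, Mpo, Ly6g, S100a8, S100a9, Ltf, Camp, Cxcr2) was 68003 to 69908 in Daxx-KO and 34335 to 38447 in WT, with 101 sites gained and 10 lost, and that of 4 erythroid genes was 1303 to 1337 against 3129 to 3159. The HSPC list was also higher in Daxx-KO, at 19101 to 19230 against 13016 to 13097. The monocyte and macrophage list lay closer together, at 20149 to 20914 against 18775 to 19456. The lists of 5 B cell genes, at 5856 to 5863 against 4270 to 5041, and 4 T cell genes, at 4588 to 4668 against 3562 to 3567, were also higher. Gained and lost sites numbered 61 and 46 for the HSPC list, 26 and 46 for monocytes and macrophages, and 29 and 29 for B cells. They numbered 10 and 12 for T cells and 7 and 24 for erythroid cells. All these counts stand beside 41.3% gained and 56.0% lost over all listed H3K27ac sites. A higher sum thus did not always go with more gained than lost sites. At 3 w.p.i. the neutrophil list summed to 2384 to 2662 in Daxx-KO and to 1267 to 1368 in WT, the HSPC list to 3592 to 4898 against 2036 to 2148, and the monocyte and macrophage list to 1274 to 1787 against 957 to 959. The erythroid list was lower in Daxx-KO, at 399 to 435 against 715 to 719, as was the T cell list, at 57.8 to 76.6 against 221 to 275. The B cell list overlapped between the groups, at 269 to 381 against 284 to 320. The part of these cell type differences in the values below was not tested.

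At 3 w.p.i. most H3K27ac sites at the 9 genes were higher in Daxx-KO, though not at every gene. Il1r1 held 11 of the gains, Nlrp3 6, and Ccl3 and Ccl4, which share sites, 5 and 7. Il6 had 0 gained and 3 lost, Cxcl2 1 and 2, and Il1a 2 and 2. Of 47 listed, 32 were gained, beside 39.4% of all listed H3K27ac sites, and 13 were lost, beside 58.2%. H3.3 leaned the same way, with 20 of 25 gained (58.7% of all) and 5 lost (39.7%), whereas Pu.1 was split, with 17 of 32 gained (55.3% of all) and 14 lost (42.8%). H3K9me3 had only 4 sites, of which 1 was gained (78.5% of all) and 3 were lost (21.1%).

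At 24 w.p.i. gained sites were not in the majority for any antibody, and except for H3.3 their share was near that over all listed sites. H3K27ac had 41 of 105 sites gained (41.3% of all) and 59 lost (56.0%), Pu.1 had 25 of 51 gained (46.9%) and 25 lost (51.3%), and H3K9me3 had 8 of 16 gained (46.9%) and 8 lost (50.3%). H3K27me3 had 22 of 49 gained (40.8%) and 25 lost (56.8%), with the gains gathered at Nlrp3. H3.3 had 17 of 45 gained (51.3%) and 27 lost (47.0%), although with sites given to the nearest protein-coding start it had 24 gained and 20 lost. With libraries scaled to a common median, H3K9me3 had 8 gained and 6 lost and H3K27me3 22 gained and 21 lost.

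At 8 w.p.i. the H3K27me3 sites at the 9 genes were mostly higher in DKO, chiefly at Il1a. Against WT, 12 of 15 were gained (48.0% of all) and 2 lost (41.6%), and against Daxx-KO 9 of 11 were gained (55.9%) and 1 lost (28.5%). These comparisons share the DKO libraries. Il1a alone held 7 of the gains in each, and only 4 genes had a listed site against WT and 3 against Daxx-KO. With libraries scaled to a common median, 12 were still gained and 2 lost against WT, but 6 were gained and 1 lost against Daxx-KO. H3K9me3 at 8 w.p.i. had 2 gained (56.8% of all) and 3 lost (32.3%) of 5 sites in Daxx-KO against WT, 1 gained (48.0%) and 2 lost (17.7%) of 3 in DKO against WT, and a single site, with overlap between the groups, in DKO against Daxx-KO (45.5% of all gained and 24.3% lost).

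**Figure D1:**
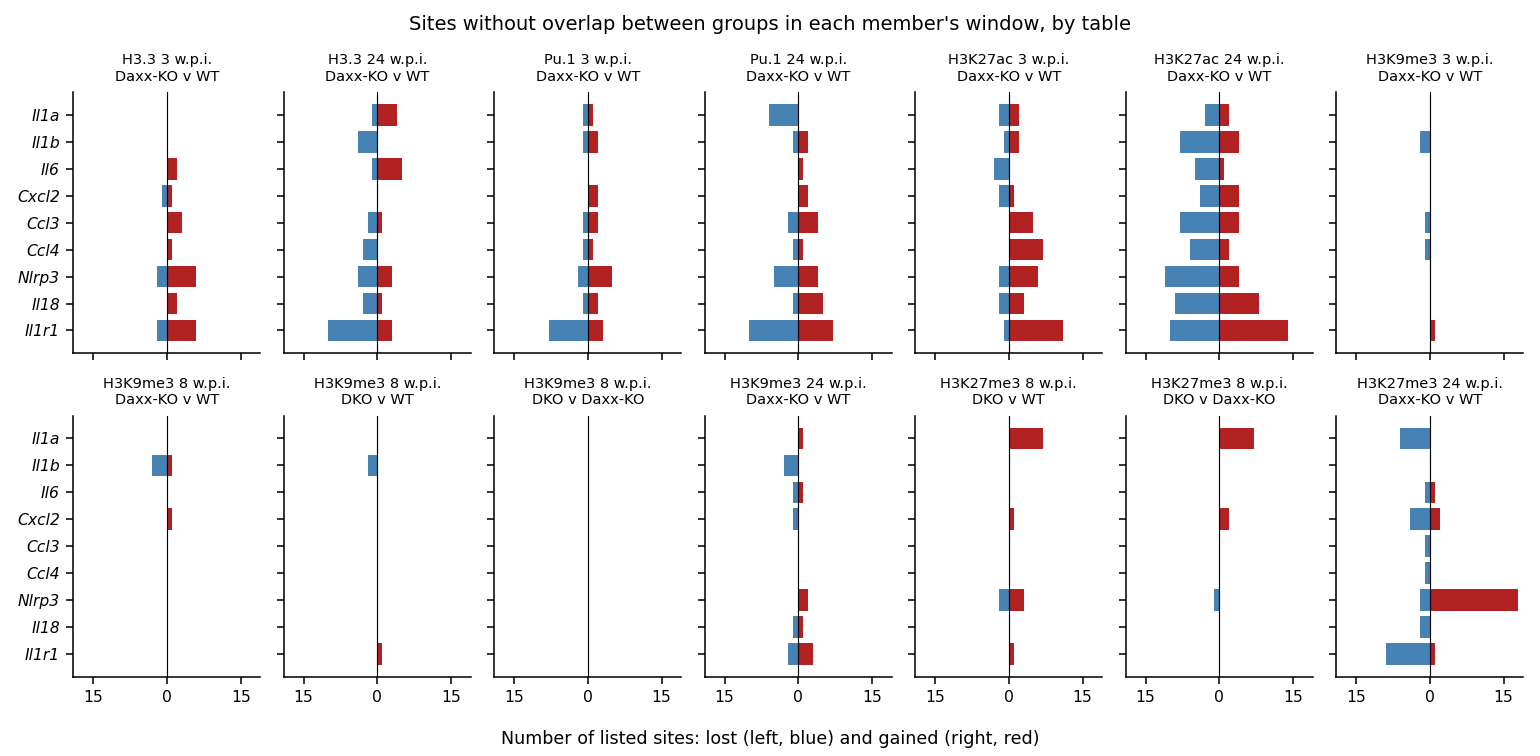
Number of listed sites (horizontal axis) gained (right, red) and lost (left, blue) in the window of each gene, with a panel for each antibody, time and comparison. Nlrp3 stands out for 18 gained H3K27me3 sites at 24 w.p.i. and Il1a for 7 gained H3K27me3 sites in DKO at 8 w.p.i.; sites shared by Ccl3 and Ccl4 are shown for both.

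**Figure D2:**
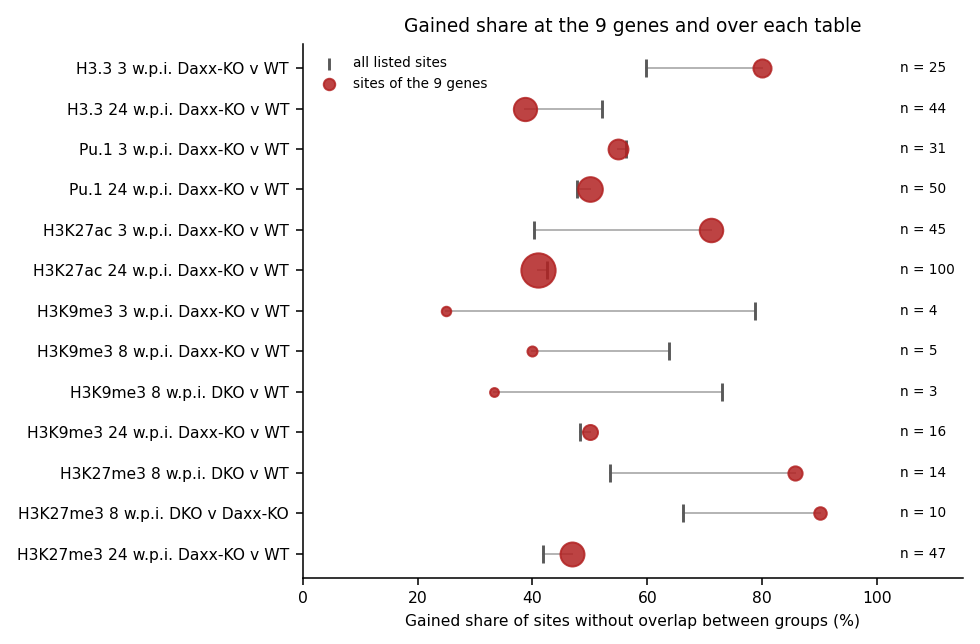
Share of sites gained (horizontal axis, percent) among those without overlap between the groups, at the 9 genes (red dots, whose area grows with the number of sites, n) and over all listed sites of the same table (black ticks). For H3K27ac at 3 w.p.i. the dot stands at 71.1% and the tick at 40.3%, and at 24 w.p.i. they stand at 41.0% and 42.5%.

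Il1a (chr2:129299610-129309972, minus strand, ENSMUSG00000027399.1, mm10) had 44 listed sites, and its most distinctive mark was H3K27me3. The largest site lay about 21 kb upstream, with its near edge inside the window. At 8 w.p.i. it (chr2:129329701-129331950) stood at 74.7, 69.9 and 82.8 in DKO and at 20.99, 18.1 and 7.83 in WT. In the comparison with Daxx-KO, the site at chr2:129329901-129331900 stood at 76.6, 80.4 and 88.1 in DKO and at 18.1, 23.9 and 17.1 in Daxx-KO. As the rule for a gain requires, all DKO libraries lay above all WT and all Daxx-KO libraries, 4.84-fold and 4.14-fold on the means. Over the Il1a start itself, H3K27me3 at 129309701-129310500 was 17.0, 14.0 and 14.2 in DKO and 0, 2.72 and 3.35 in WT, 7.43-fold higher. All 7 listed sites of Il1a were gained in DKO against WT and all 7 against Daxx-KO, although with libraries scaled to a common median 3 of the latter 7, among them both sites at the start, no longer separated the groups.

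In the older mice the same Il1a region differed in the opposite direction between Daxx-KO and WT. H3K27me3 at chr2:129329501-129332150 was 99.7 and 109 in Daxx-KO compared with 443 and 417 in WT at 24 w.p.i., and at the start (129310201-129311200) it was 10.4 and 20.2 against 86.8 and 37.1. All 6 listed H3K27me3 sites of Il1a were lost in Daxx-KO, 5 of them also after scaling. Low values accompanied this at the start in the other marks: H3K27ac at 129309401-129310500 was 20.98 and 26.4 against 44.7 and 75.2, and Pu.1 at 129308251-129309050 was 4.77 and 0 against 63.3 and 40.0. Further out, by contrast, the largest H3K27ac site of Il1a (129314051-129316650, 5.4 kb upstream, overlapping the small RNA gene Gm25703) was 2.05-fold higher in Daxx-KO, at 2040 and 1636 against 912 and 880. All 6 listed Pu.1 sites of Il1a were lost at 24 w.p.i., and 4 of 5 H3.3 sites were gained, 2 of them also after scaling.

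Il1b (chr2:129364570-129371139, minus strand, ENSMUSG00000027398.13) had 39 listed sites. At 3 w.p.i. H3K27ac over its start (129371101-129372250) was 19.4 and 108 in Daxx-KO compared with 23.6 and 15.5 in WT, so that the groups overlapped and 1 mouse carried the difference. At 24 w.p.i. the H3K27ac site 1.1 kb downstream of the start (129369701-129370300) was higher in Daxx-KO, at 139 and 124 against 70.4 and 75.9 (1.80-fold). The antisense transcript Il1bos overlaps both places. Most of the other H3K27ac sites of Il1b went down, with 4 gained and 8 lost in all; the largest, 9.2 kb upstream (129379801-129380950), stood at 293 and 218 against 509 and 615.

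Il1b had 3 listed Pu.1 sites in the older mice, of which the one upstream was lost and the other two, beyond the end of the gene, were gained. At chr2:129372951-129374400, 2.5 kb upstream of the start, it was 4.09 and 1.04 in Daxx-KO compared with 112 and 137 in WT, and H3.3 over the same place (129373251-129374150) was 6.62 and 23.8 against 102 and 65.8. H3K27ac there (129373701-129374600) fell less, from 288 and 306 in WT to 199 and 198 in Daxx-KO, a loss that did not stand after scaling to a common median. The gained Pu.1 sites were 129359951-129360600, at 31.4 and 185 in Daxx-KO against 17.3 and 9.47 in WT, and 129360651-129361500, at 64.1 and 83.6 against 11.5 and 25.3. The 300 bases at the middle of the lost Pu.1 site (GRCm38.p6 plus strand, chr2:129373526-129373825) are shown because they hold the Pu.1 motif GAGGAAGT, in capitals, searched on both strands.
Il1b 2.5 kb upstream: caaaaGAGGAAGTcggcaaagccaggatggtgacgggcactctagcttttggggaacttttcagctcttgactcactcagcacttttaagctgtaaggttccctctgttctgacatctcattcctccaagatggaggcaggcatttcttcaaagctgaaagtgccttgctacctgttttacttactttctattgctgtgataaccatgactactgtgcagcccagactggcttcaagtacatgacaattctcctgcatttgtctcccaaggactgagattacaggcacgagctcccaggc
At the 9 genes that motif was present in 6 of 51 Pu.1 sites at 24 w.p.i., beside 5.76% of all listed Pu.1 sites, and in 1 of 32 at 3 w.p.i., beside 5.66%.

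H3K9me3 at the downstream edge of Il1b was lower in the mutants at all 3 times. At 3 w.p.i. H3K9me3 at chr2:129346301-129348450, 23.8 kb beyond the start, was 65.1 and 51.7 in Daxx-KO compared with 197 and 182 in WT. At 8 w.p.i. the overlapping site 129345351-129348350 was 76.9, 36.8 and 88.2 in Daxx-KO compared with 214, 239.6 and 237 in WT, and in DKO the site at 129346201-129348350 was 25.9, 69.1 and 21.5 against 116, 118 and 128. By the rule for a loss, every mutant library was below every WT library at these sites. At 24 w.p.i. the neighbouring site 129343101-129345500 was 252 and 244 against 508 and 436. In the same window 1 H3K9me3 site (129355801-129356400) was gained in Daxx-KO against WT at 8 w.p.i., a gain that did not stand after scaling to a common median. Altogether 10 H3K9me3 sites were lost here over the 4 comparisons with WT, 2 of them (at 24 w.p.i.) no longer after scaling. The lost sites overlap or lie near each other, and the 2 comparisons of 8 w.p.i. share their WT libraries, so they are not independent repeats. In the soft-masked genome sequence, which marks repeats, 69.0% to 92.5% of the bases of these sites were repeats except for the site 24.4 kb from the start at 24 w.p.i. (40.5%), beside medians of 25.2% to 44.3% over all listed H3K9me3 sites of these tables.

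**Figure D3:**
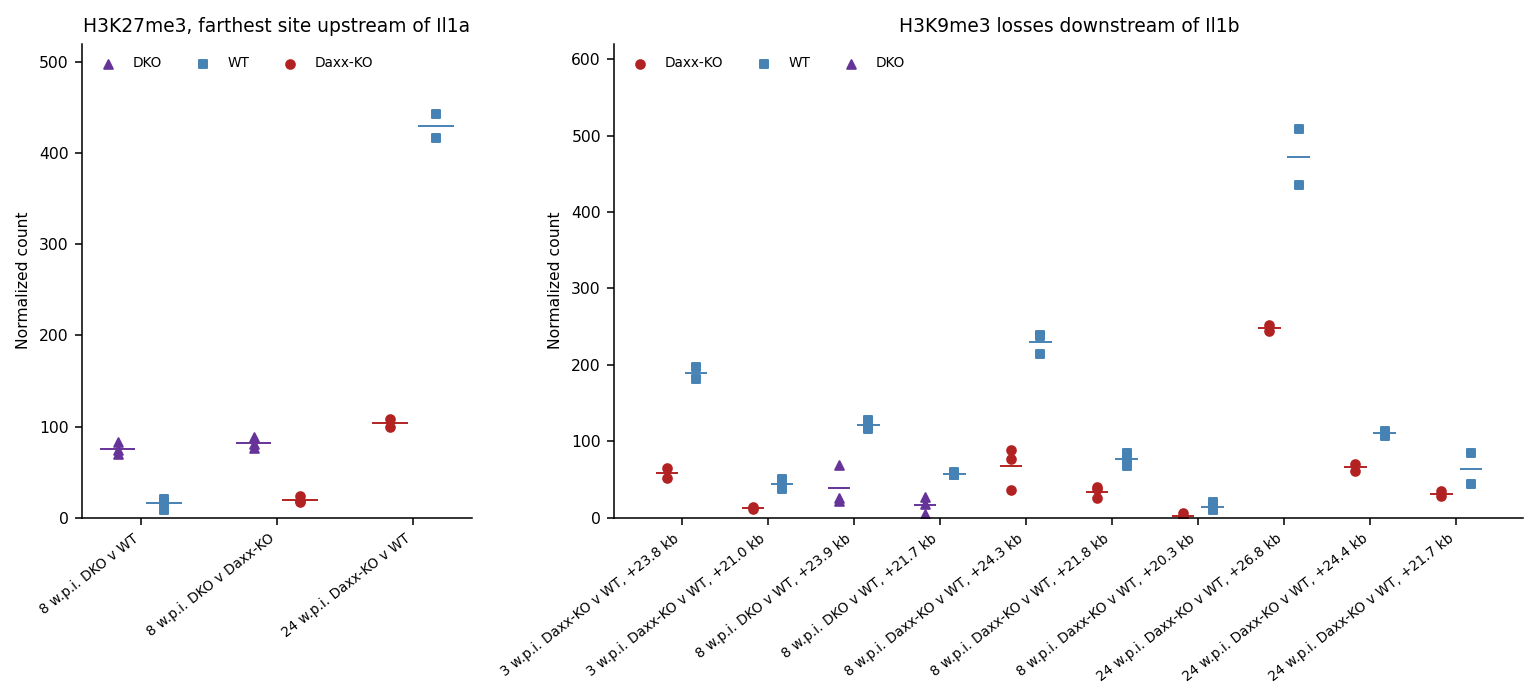
Left, H3K27me3 normalized count of each library at the site about 21 kb upstream of Il1a in 3 comparisons; right, H3K9me3 normalized count at the sites lost downstream of Il1b, labelled by comparison and distance from the Il1b start. Points are single mice and lines group means. DKO lies above WT and Daxx-KO at Il1a at 8 w.p.i., and Daxx-KO lies below WT there at 24 w.p.i. At Il1b only lost sites are drawn, so that mutants lie below WT by the rule for a loss. The 1 site gained there in Daxx-KO against WT at 8 w.p.i. is not drawn.

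Il1r1 (chr1:40225080-40317257, plus strand, ENSMUSG00000026072.12), the receptor gene and the longest of the 9, held 107 listed sites. Its main H3K27ac change was not at the annotated 5′ end but 38 to 49 kb into the gene, around the transcript starts annotated at 41.5 and 41.6 kb. At 3 w.p.i. the largest site there (40270501-40272450) was 150 and 159 in Daxx-KO compared with 88.1 and 61.8 in WT. At 24 w.p.i. 4 neighbouring sites were each higher in both Daxx-KO mice. The site over the internal starts (40265101-40266900) was 318 and 378 against 113 and 139, the next (40267801-40269450) 201 and 217 against 51.4 and 60.9, and the third (40270701-40273050) 239.8 and 341 against 65.9 and 127. These were 2.76-fold, 3.72-fold and 3.01-fold higher. Over the gene and its flanks H3K27ac was gained at 11 sites and lost at 1 at 3 w.p.i., and gained at 14 and lost at 10 at 24 w.p.i.

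The annotated Il1r1 start changed in several marks at 24 w.p.i. H3K27ac at 40225051-40225700 was 95.2 and 154 in Daxx-KO against 50.3 and 38.8 in WT (2.80-fold), although the adjoining site 40224401-40225000 overlapped between the groups, at 50.2 and 237 against 79.3 and 92.6. Pu.1 over the start (40224951-40225800) was 56.6 and 46.0 against 10.1 and 7.37 (5.88-fold). H3K27me3 over the start was 14.4 and 18.4 against 81.2 and 31.4, and H3K9me3 at 40223451-40224150 was 3.19 and 0 against 43.5 and 28.1. The active mark and Pu.1 were thus higher, and both repressive marks lower, in the same 2 Daxx-KO mice. Over the gene and its flanks H3K27me3 was lost at 9 of 11 sites and gained only at 40267951-40269600, beside the internal starts, at 395 and 409 against 239.9 and 198. Pu.1 was lost at 8 of 11 sites at 3 w.p.i. and at 10 of 17 at 24 w.p.i.

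Nlrp3 (chr11:59541568-59566956, plus strand, ENSMUSG00000032691.14) had 85 listed sites, and its marks changed direction with time. At 3 w.p.i. H3K27ac over the start (59540401-59542200) was 501 and 607 in Daxx-KO compared with 309 and 364 in WT, 1.65-fold higher. Of its 8 H3K27ac sites 6 were gained and 2 lost. At 24 w.p.i. 4 were gained and 11 lost of 17, the lost sites running from upstream through the gene and 8 of the 11 holding after scaling to a common median. The broad upstream site 59525101-59530200, 13.9 kb before the start and partly over Zkscan17, was 650.4 and 546 against 1197 and 1092. The site 20.9 kb into the gene (59561101-59563850) was 85.4 and 26.4 against 279 and 289.5. At the start the difference was small: 59542051-59542700 was 952 and 976 against 977 and 1341 (0.832-fold), and this loss became a gain when libraries were scaled to a common median. The largest H3K27ac site of the window was gained. It (59542651-59543250), over the transcript starts 1.1 and 1.2 kb into the gene, was 1255 and 1240 against 1077 and 1153 (1.12-fold).

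H3K27me3 at Nlrp3 was higher in Daxx-KO over the gene and its flanks at 24 w.p.i., with 18 of 21 sites gained and 2 lost. The gained sites were 1.79-fold to 5.11-fold higher. The longest, 59553701-59556550 in the middle of the gene, was 332 and 341 in Daxx-KO against 130 and 65.7 in WT. At the internal transcript starts 1.1 and 1.2 kb into the gene, 59542151-59543250 was 79.0 and 72.7 against 25.2 and 24.3, whereas at the first start the groups overlapped, at 43.1 and 31.3 against 41.1 and 98.5. The largest site of the window was a lost site 31.2 kb from the start, over the olfactory receptor gene Olfr222, at 932 and 902 against 1121 and 1316, which no longer separated the groups after scaling. With sites given to the nearest protein-coding start the count at Nlrp3 was only 7 gained and 1 lost. H3K27me3 was thus gained over a gene body where H3K27ac was mostly lost, in the same 2 Daxx-KO mice. Over the internal starts, however, the largest H3K27ac site was gained as well.

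**Figure D4:**
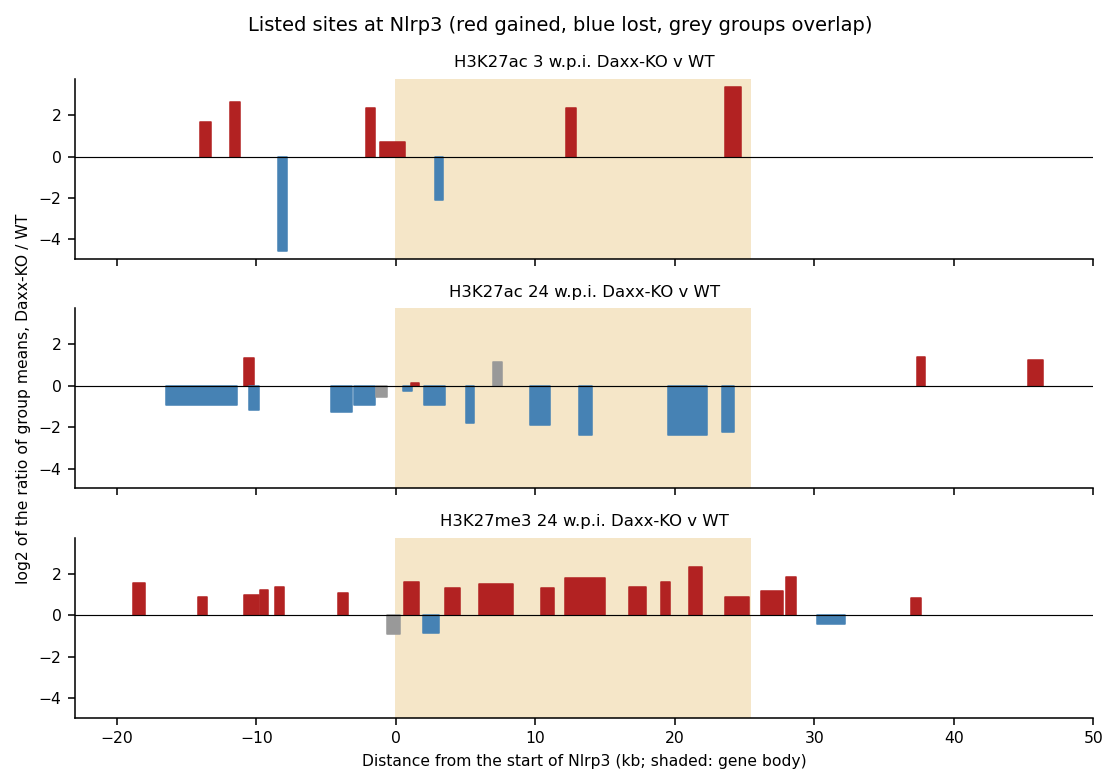
Listed sites across Nlrp3, with distance from its start on the horizontal axis (kb, gene body shaded) and the log2 ratio of the Daxx-KO and WT group means on the vertical axis, for H3K27ac at 3 and 24 w.p.i. and H3K27me3 at 24 w.p.i. Bars are sites (red gained, blue lost, grey with overlap); H3K27ac bars point mostly up at 3 w.p.i. and mostly down at 24 w.p.i., where H3K27me3 bars point mostly up.

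Pu.1 upstream of Nlrp3 also differed in direction between the times. At 3 w.p.i. Pu.1 at 59527551-59528600, 13.5 kb upstream, was 58.3 and 71.3 in Daxx-KO compared with 39.7 and 0 in WT, and at 24 w.p.i. the overlapping site 59527501-59528700 was 26.6 and 6.27 against 101 and 86.3. The WT library at 0 was the shallower of the 2. The RefSeq promoter of the internal start (GRCm38.p6, chr11:59542436-59542735, plus strand) lies under the H3K27ac and H3K27me3 sites there and is shown with the Pu.1 core GAGGAA, found 3 times on the 2 strands, in capitals.
Nlrp3 internal start: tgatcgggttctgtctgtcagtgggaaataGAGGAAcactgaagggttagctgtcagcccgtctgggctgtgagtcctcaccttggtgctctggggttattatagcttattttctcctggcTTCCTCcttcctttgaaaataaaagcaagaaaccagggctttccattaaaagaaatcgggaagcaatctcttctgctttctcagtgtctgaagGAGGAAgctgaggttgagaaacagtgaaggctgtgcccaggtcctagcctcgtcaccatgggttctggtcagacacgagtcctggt
The core was present in 28.3% of 32851 RefSeq promoters of this length, and the longer GAGGAAGT, absent here, in 3.20%.

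Il18 (chr9:50554827-50581840, plus strand, ENSMUSG00000039217.13), the other inflammasome cytokine, had 41 listed sites and shares its upstream region with Bco2. Both H3K27ac sites at its start were lost at 24 w.p.i.: 50553151-50554350 was 68.2 and 27.8 in Daxx-KO against 235 and 150.3 in WT, and 50554951-50555700 was 100.4 and 93.7 against 135 and 153, the latter not after scaling. H3K27me3 over the start was lost as well, at 7.98 and 18.4 against 54.2 and 37.1. The largest H3K27ac site of the Il18 window lay 37.5 kb downstream of the start (50589901-50594750), between Il18 and Sdhd, and was 2.06-fold higher in Daxx-KO, at 7439.9 and 6979 against 3225 and 3758. Pu.1 at 24 w.p.i. was gained at 5 of its 6 sites, among them 50594451-50595250 next to this region, at 85.9 and 51.2 against 5.76 and 9.47.

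Il6 (chr5:30013114-30019981, plus strand, ENSMUSG00000025746.11) had the fewest sites, 22, and its H3K27ac was lower in Daxx-KO at both times. At 3 w.p.i. all 3 sites were lost, on few reads: the largest (30014301-30015350, 1.7 kb into the gene) was 1.94 and 0 against 25.8 and 8.83. At 24 w.p.i. the overlapping site 30014151-30015300 was 9.74 and 8.78 against 139 and 72.0, and 30011901-30012550 just upstream of the start was 13.5 and 5.85 against 33.5 and 60.9. In all 5 of 6 sites were lost and 1 gained. H3K27me3 at the start was lost too, at 18.4 and 48.8 against 98.0 and 70.0, and H3.3 over the start was gained, at 72.9 and 69.0 against 41.5 and 3.76, with WT replicate 2 far below WT replicate 1. H3.3 was gained at 2 of 2 sites at 3 w.p.i. and at 5 of 6 at 24 w.p.i.

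Cxcl2 (chr5:90903871-90905938, plus strand, ENSMUSG00000058427.10) differed in opposite directions at its promoter at the 2 times. At 3 w.p.i. H3K27ac at 90902851-90904450 was 29.1 and 13.6 in Daxx-KO compared with 68.8 and 72.8 in WT (0.301-fold). At 24 w.p.i. the overlapping site 90902501-90904100 was 1315 and 976 against 604 and 513 (2.05-fold), while the adjoining 90904151-90904950, inside the gene, was lost at 27.7 and 17.6 against 111 and 53.0. These orders hold in every library by the rule for a gain or loss. H3K27me3 over the start (90903651-90904800) was 283 and 342 against 392 and 741 at 24 w.p.i., a loss not kept after scaling, and upstream of the start at 8 w.p.i. (90902501-90903200) it was 13.6, 53.3 and 13.1 in DKO against 6.12, 5.43 and 6.71 in WT. Pu.1 18.4 kb upstream (90884751-90886100) was 239.9 and 107 in Daxx-KO against 0 and 23.2 at 24 w.p.i. Over the start (90903751-90904350) Pu.1 overlapped between the groups at that time, at 42.9 and 37.6 against 132 and 42.1.

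The RefSeq promoters of Cxcl2 (GRCm38.p6, chr5:90903649-90903948) and Il6 (chr5:30012864-30013163), both on the plus strand, are shown because they lie at or under the sites just described and hold the NF-kB motif (GGG, any 2 bases, then TTTCC), in capitals, which is present in 1.63% of all RefSeq promoters of this length when both strands are searched.
Cxcl2 promoter: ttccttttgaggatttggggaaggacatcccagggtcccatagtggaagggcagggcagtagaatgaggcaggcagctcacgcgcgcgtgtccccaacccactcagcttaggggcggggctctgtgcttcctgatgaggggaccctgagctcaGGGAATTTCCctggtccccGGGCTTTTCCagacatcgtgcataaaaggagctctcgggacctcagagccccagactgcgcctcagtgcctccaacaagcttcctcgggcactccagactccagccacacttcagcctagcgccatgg
Il6 promoter: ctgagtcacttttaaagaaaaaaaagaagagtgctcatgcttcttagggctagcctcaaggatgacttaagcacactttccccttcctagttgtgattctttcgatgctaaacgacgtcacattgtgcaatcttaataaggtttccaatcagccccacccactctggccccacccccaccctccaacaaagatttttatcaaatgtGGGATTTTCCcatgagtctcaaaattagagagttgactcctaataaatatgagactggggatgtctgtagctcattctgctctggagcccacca
Cxcl2 has 2 matches, beginning 97 and 78 bases before its start, and Il6 has 1, beginning 44 bases before. The other members matched in the RefSeq promoter table, Il1a, Il1b, Il1r1, Il18, Nlrp3 and Ccl3, had none; Ccl4 was not matched. The Cxcl2 promoter lay inside the H3K27ac site lost at 3 w.p.i. and inside the site gained at 24 w.p.i.

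Ccl3 (chr11:83647844-83649355, minus strand, ENSMUSG00000000982.5) and Ccl4 (chr11:83662584-83664683, plus strand, ENSMUSG00000018930.3) lie next to each other, so that their windows share sites. Their H3K27ac was higher in Daxx-KO at 3 w.p.i. at every listed site, 5 at Ccl3 and 7 at Ccl4. Over the Ccl3 start (83648251-83649250) it was 109.5 and 223 against 94.6 and 79.4 (1.91-fold), and between the genes (83658151-83659750) it was 75.6 and 195 against 39.8 and 33.1. In both places 1 Daxx-KO mouse was well above the other. At 24 w.p.i. the site between the genes (83658001-83660050) went the other way, at 153 and 135 against 300.5 and 332, and the Ccl4 start (83661651-83663150) was 415 and 533 against 664 and 619 (0.739-fold), the latter not after scaling. The Ccl3 start overlapped between the groups at both of its sites.

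The largest H3K27ac site of the chemokine pair was gained at 24 w.p.i. It lay 9.3 kb beyond the Ccl3 start, downstream of the gene (83638701-83641400), and was 5265 and 5345 in Daxx-KO against 3051 and 3167 in WT (1.71-fold). Pu.1 inside this site (83639751-83640600) was 83.2 and 46.0 against 20.2 and 4.21. Downstream of Ccl4, by contrast, Pu.1 at 83665151-83666000 was listed at 0 in both Daxx-KO mice against 51.8 and 103 in WT, at least 62.8-fold lower on a floor of 3 reads over the group, and H3.3 at the overlapping 83665251-83666400 was 4.42 and 11.3 against 125 and 48.9.

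**Figure D5:**
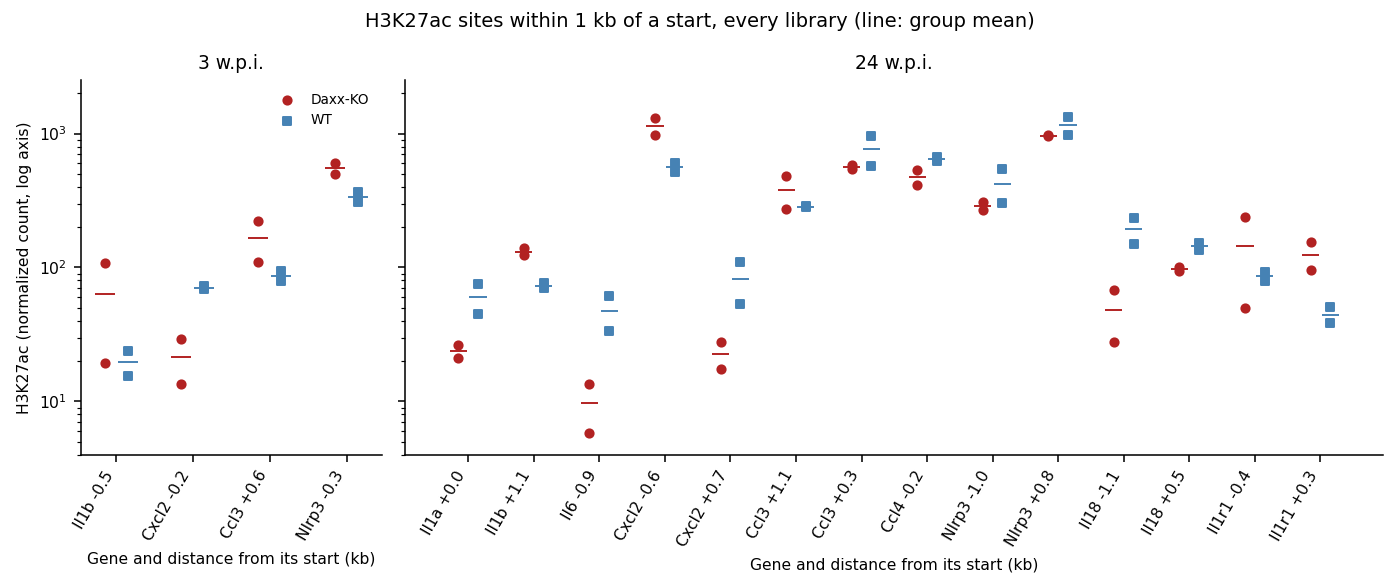
H3K27ac normalized count (log axis) in each library at every listed site within 1 kb of the start of a member, at 3 and 24 w.p.i., with the distance of the site centre from the start in kb. Points are single mice and lines group means; Daxx-KO lies below WT at Cxcl2 at 3 w.p.i. and above it upstream of the start at 24 w.p.i.

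Near the starts, H3K27ac within 1 kb of a member was gained at 2 and lost at 1 of 4 sites at 3 w.p.i., beside 20.9% gained and 75.2% lost over all listed sites near protein-coding starts. At 24 w.p.i. it was gained at 3 (Il1b, Cxcl2, Il1r1) and lost at 7 of 14, beside 54.0% and 41.1%. With libraries scaled to a common median the count was 5 gained and 4 lost, so that the lean to losses turned, beside 57.5% and 26.996% over all starts scaled in the same way. H3K27me3 at starts at 24 w.p.i. was gained at 1 and lost at 6 of 8, beside 25.4% and 65.7%, so that the loss at starts was near that of all genes. At 8 w.p.i. H3K27me3 at starts was gained in DKO at 2 of 2 sites against WT (40.6% gained and 31.4% lost over all starts) and at 2 of 3 against Daxx-KO (37.7% and 36.8%), the gained ones being those of Il1a and, against WT, Cxcl2. After scaling both start sites against WT were still gained and 0 of 3 against Daxx-KO.

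Of 38 further genes of these pathways, H3K27me3 at the start went the same ways. At 24 w.p.i. it was lost at 21 of 27 start sites and gained at 4, the gains at Il6st (the shared IL-6 receptor subunit gp130), Cxcl1 and Myd88. At 8 w.p.i. it was gained in DKO at 7 of 9 start sites against WT and at 5 of 5 against Daxx-KO, and lost at 0 in either, beside the percentages over all starts just given. At Ccl2, the monocyte chemoattractant, the start site (82033751-82034900) was 26.0, 29.7 and 36.0 in DKO and listed at 0 in all 3 WT mice. H3K27ac at starts was gained at 6 and lost at 11 of 19 at 3 w.p.i. (31.6% and 57.9%, beside 20.9% and 75.2% over all starts), and gained at 16 and lost at 22 of 42 at 24 w.p.i. (38.1% and 52.4%, beside 54.0% and 41.1%). The pathway genes thus had the larger share of gains at 3 w.p.i. and the smaller at 24 w.p.i., where scaling gave 17 gained and 14 lost.

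The gained H3K27ac starts of 24 w.p.i. included Tnf, the cytokine gene, at 3268 and 2908 in Daxx-KO against 1969 and 1827 in WT, Il6ra, the IL-6 receptor, at 2789.7 and 2510.2 against 1511 and 1331, and Cxcr2, the receptor for Cxcl2, at 1016 and 786 against 486 and 482. The lost starts included Ccl2, at 77.9 and 84.9 against 265 and 316, Il1rn, the IL-1 receptor antagonist, at 16.5 and 26.4 against 89.4 and 109.96, and Nfkbiz, an inducible NF-kB regulator, at 260.01 and 316 against 645 and 684. Receptors and ligands of these pathways were found in both directions.

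Between 3 and 24 w.p.i., in different mice, the direction of H3K27ac at the 9 genes was often not the same. Of 45 sites called at 3 w.p.i., 30 overlapped a called site at 24 w.p.i., 66.7% beside 35.3% of all sites. Of these 30, 13 had the same direction and 15 the opposite, and 2 overlapped sites of both, while over all sites 57.9% had the same direction. By the nearest member, pairs of overlapping sites were in the same direction 6 times and opposite 1 time at Il1r1, and 1 and 5 times at Nlrp3. The same counts were 4 and 1 at Cxcl2, 2 and 0 at Il6, 2 and 2 at Il1a, 1 and 1 at Il1b, 0 and 3 at Il18, 0 and 1 at Ccl3 and 0 and 4 at Ccl4. Pu.1 had 5 overlapping sites, 1 in the same direction (44.7% of all overlapping sites) and 4 opposite, and H3.3 had 4, of which 2 were the same (48.5% of all). For H3K9me3 the overlapping sites, 2 between 3 and 8, 3 between 3 and 24 and 2 between 8 and 24 w.p.i., all kept their direction, beside 76.5%, 53.9% and 59.0% of all such sites. They lay at Il1b and, for 1 site between 3 and 24 w.p.i., upstream of Il1r1.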

How the data were processed

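CUT&Tag libraries of mouse bone marrow HSPCs were grouped by genotype, antibody and time from the labels. The tables deposited by the authors hold, for each site, the normalized count of every library as made by diffReps 1.55.6 (windows of 600 bp, step 50 bp, fragment 100 bp, negative binomial test, window p under 0.0001, mm10). Their submitters' processing notes also name CASAVA 1.8.4, cutadapt 1.13, STAR 2.5.3 and bedtools. The authors' other columns hold their fold changes, p-values, adjusted p-values and direction calls and were not used. A table of H3K27me3 at 8 w.p.i. was not used because its header sets Daxx-KO H3K27me3 against WT H3K9me3 libraries, and 8 DKO libraries of 24 w.p.i. are in no table used. The 14 tables hold 54 of the 62 libraries, and those of 24 w.p.i. exclude X and Y. Depth is the mean reads per window in the header, which limits the precision of low sites.

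Genes were those of GENCODE M21 and sites were joined by any overlap, in Python 3.11.15 (pandas 2.3.3, numpy 2.4.6, scipy 1.17.1; figures by matplotlib 3.10.9). Sites named were taken from those within 1 kb of a member's start and the largest by mean in each window and table, not all of which are given. Others named were chosen after their values were seen. The members, the pathway and marker lists and the call were chosen with earlier results of these data known. Scripts were tested on simulated data. Alternatives were other call rules, windows, filters, merging, scaling to a common median and leaving out each library. Sequences are from RefSeq and the GRCm38.p6 genome. Replicates are different mice per the labels and headers, and the spread is that between them.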

Additional observations from a re-analysis of the deposited data

Results flagged for a closer look

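At the 9 genes 15 H3K27ac, 4 Pu.1 and 2 H3.3 sites called at 3 w.p.i. overlapped only sites of the opposite call at 24 w.p.i., and 2 H3K27ac sites overlapped sites of both calls. By the rule for a call, every Daxx-KO library lies on the called side of WT at each time, so the order of the libraries adds no support here. The 5 places at a start or at the largest site of a window are given below. The difference between the times was not tested, and the libraries of the 2 times came from different mice and were sequenced to different depths. H3K27ac at the Nlrp3 start was 1.65-fold of WT at 3 w.p.i. and 0.832-fold at 24 w.p.i., the second turning to a gain after scaling. H3K27ac at the Cxcl2 promoter was 0.301-fold of WT at 3 w.p.i. and 2.05-fold at 24 w.p.i., although the site of 3 w.p.i. also overlapped a lost site at 24 w.p.i. Downstream of Il1a (11.9 kb from its start, next to Ckap2l) H3K27ac was 0.506-fold and then 1.26-fold. Upstream of Il18 (6.4 kb, within Bco2) it was 3.41-fold and then 0.242-fold. Pu.1 19.7 kb beyond the Ccl3 start was 2.04-fold and then 0.217-fold, the second with 0 and 24.0 in Daxx-KO against 43.2 and 67.4 in WT.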

How the results depend on the processing

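Of 200 recomputed shares of gained sites, 187 stayed within the 95% exact binomial interval of the value reported, and 13 moved, 4 of them to the other side of an even split (Pu.1 at 3 w.p.i., H3K9me3 in DKO against WT under 2 windows, and H3.3 at 24 w.p.i.). That interval takes sites as independent, although many are neighbours. It is wide where sites are few, at 0.84% to 90.6% for H3K9me3 in DKO against WT. The number that stayed is therefore no measure of stability. With gene bodies alone, the share was 23.1% for Pu.1 at 3 w.p.i., and 100% for H3K9me3 in DKO against WT and for H3K27me3 in DKO against Daxx-KO, both also 100% with 5 kb flanks, where H3K9me3 at 3 w.p.i. fell to 0%. With 50 kb flanks H3K27ac at 3 w.p.i. fell to 51.3% (40 gained, 38 lost). With a minimum mean of 20, H3K9me3 at 3 w.p.i. and in DKO against WT fell to 0%, the latter also 0% with libraries scaled to a common median. With a 2-fold minimum H3K27me3 in DKO against Daxx-KO was 100%. With sites given to the nearest protein-coding start, H3.3 at 24 w.p.i. was 54.5% (24 gained, 20 lost) and H3K27me3 at 24 w.p.i. 28.1% (9 gained, 23 lost). The causes were not tested; the H3K9me3 shares rest on 3 to 5 sites. Before scaling, the log2 ratio of the Daxx-KO and WT medians was -0.57 for H3K27ac at 24 w.p.i. and 1.69 for H3K9me3 at 3 w.p.i. These were the extremes among the comparisons, and scaling removed them. It ended 10 of 100 H3K27ac calls at 24 w.p.i. and turned 1, giving 44 gained and 48 lost. It also moved H3K9me3 at 8 w.p.i. (Daxx-KO against WT) from 40% to 25.0%. Without any 1 library the share of H3K27ac at 3 w.p.i. was 71.1% to 72.3%. By the rule used, leaving out a library can add calls but cannot end one, so this range shows little about stability. Counts per gene moved by over 1.5 times in 373 of 1790 cases. At 10 places listed sites of opposite direction overlap each other, 6 of them in H3K27ac at 24 w.p.i. No paired analysis was run, since no test was run and each comparison is between different mice. At depths of 0.2 to 3.29 reads per window at 8 w.p.i., sites of low signal cannot be told apart from background.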
